A study of Rattus norvegicus with 12 samples.

Results

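The genes described here are the T cell coreceptors Cd4 (ENSRNOG00000016294) and Cd8a (ENSRNOG00000007178), 2 of the 32754 genes counted in the series, chosen by identifier and not by their values. They were read as a measure of lineage purity in β-synuclein-reactive CD4+ T cells, which recognise a neuronal protein. All cells came from Lewis rats (LEW/Crl) and were sorted 3 days after intravenous transfer, with 3 libraries in each of 4 groups. Wild-type cells (genotype wt) were taken from blood. Cells that carry a transgenic T cell receptor (b-syn TCR Tg) were taken from blood, from the meninges (the coverings of the brain) and from the parenchyma, which is brain tissue proper. For age, the recipients and the promoter of the transgene, the sources used here give nothing. Wild-type cells were sequenced from blood only, so a wild-type level beside a meningeal or parenchymal one differs in genotype and in tissue, which cannot be told apart.

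CD4 and CD8 are the surface proteins that help the T cell receptor to read its target. CD4 binds MHC class II molecules and CD8 binds MHC class I molecules, and both bring the kinase Lck to the receptor. Helper T cells keep CD4 and switch off CD8 when they mature in the thymus, and cytotoxic T cells do the reverse. Cd8a encodes the α chain of CD8, which pairs with a β chain on most cytotoxic T cells and with itself on some other cells. In the rat, monocytes and macrophages also carry CD4 (the antigen of the antibody W3/25), and natural killer cells also carry the CD8 α chain. In RNA from a sorted pool, a few cells with much Cd8a and many cells with little of it cannot be told apart, and neither can fewer cells of a type and less RNA per cell.

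Libraries held between 16643832 and 38601400 counts, and levels are given as CPM, the count per 1000000 counts of its library. Replicates of a group differed by more than sampling noise in every pair (lowest chi-square per degree of freedom 13.9). The labels do not tie replicates to separate animals, so p-values reflect only the spread of these libraries, which may be technical. The code in the titles ends in 4 for the 3 parenchyma libraries and in 3 for the others. If that digit marks a day, tissue and day cannot be told apart in any comparison with the parenchyma. The deposited identifiers are not paired with symbols, so the Cd8a partner gene Cd8b, the factors that fix the CD4 or CD8 fate and the markers of other cell types were not analysed here. In the RefSeq annotation of the GRCr8 assembly, both genes lie on chromosome 4, Cd8a next to Cd8b and Cd4 between Gpr162 and Lag3, and 0 annotated genes overlap either of them. The counts were made on build rn6, so this does not show whether genes overlap in the annotation used for counting.

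Cd4 was abundant in every library and stood at nearly the same level in all 4 groups. In wild-type blood the 3 libraries held 666, 721 and 613 CPM, a mean of 667 ± 54.1 (SD, n = 3). In transgenic blood they held 609, 771 and 778 CPM, a mean of 719 ± 96.1. In the meninges the values were 652, 749 and 757 CPM, with a mean of 719 ± 58.6. In the parenchyma they were 639, 774 and 747 CPM, with a mean of 719.8 ± 71.2. The ranges of all 4 groups overlapped, and in each transgenic tissue the lowest library was the one numbered 1. By CPM, which is not corrected for gene length, Cd4 ranked between 131 and 213 among the genes of each library.

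**Figure D1:**
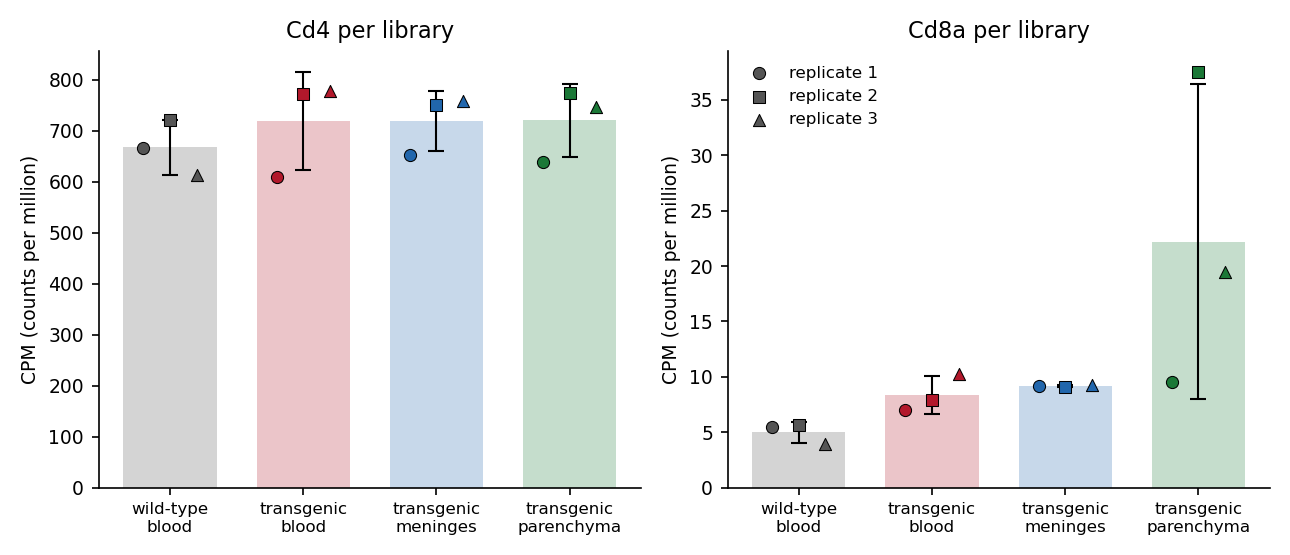
CPM of Cd4 (left) and Cd8a (right) in each of the 12 libraries, by group, with axes that start at 0; bars are means, error bars are the SD over 3 libraries and symbols are replicates 1 to 3. Cd4 lay between 609 and 778 CPM throughout, whereas Cd8a went from 3.94 CPM in a wild-type blood library to 37.5 CPM in parenchyma replicate 2.

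The comparisons asked how the coreceptor levels of the sorted cells differed between genotypes in blood and between blood and the brain compartments. Cd4 was called in 0 of the 4 comparisons with edgeR's quasi-likelihood test at a Benjamini-Hochberg adjusted p of 0.05, in 0 at an unadjusted p of 0.05, and in 0 with DESeq2 or limma-voom. Over all genes tested, the same rule called 6.51% for meninges against blood, 35.1% for parenchyma against blood, 15.5% for parenchyma against meninges and 25.8% for transgenic against wild-type blood. The log2 fold change of Cd4 was 0.05 in meninges against blood (SE 0.13, 95% interval -0.23 to 0.34, adjusted p = 0.857 by edgeR). In parenchyma against blood it was -0.01 (interval -0.29 to 0.27, edgeR adjusted p = 0.962). In parenchyma against meninges it was -0.06 (interval -0.35 to 0.22, edgeR adjusted p = 0.779). Transgenic against wild-type blood gave 0.09 (SE 0.15, interval -0.23 to 0.42, edgeR adjusted p = 0.662). These intervals leave room for changes of Cd4 up to the bounds given, and the tissue comparisons share their libraries.

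The highest Cd4 library stood only 1.28 times above the lowest across all 12. A smaller ratio of highest to lowest CPM was found in 1.29% of the 11809 genes tested between tissues, whose median was 2.26. Of the 429 genes within 2-fold of the mean level of Cd4, 1.4% had a smaller ratio, and their median was 2.00. That range of level was chosen after the values of Cd4 were seen.

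Cd8a was far below Cd4 in every library, and the order of its means was wild-type blood, transgenic blood, meninges and parenchyma. By CPM, Cd8a ranked between 5279 (parenchyma replicate 2) and 9206 (wild-type blood replicate 3) among the genes of each library. Wild-type blood held 5.44, 5.62 and 3.94 CPM, from 210, 205 and 118 counts, a mean of 5.001 ± 0.924 (SD, n = 3). Transgenic blood held 6.97, 7.88 and 10.3 CPM, from 148, 161 and 173 counts, a mean of 8.37 ± 1.70. All 3 transgenic blood libraries thus lay above all 3 wild-type ones. In the meninges the values were 9.19, 9.07 and 9.26 CPM, from 216, 151 and 304 counts, a mean of 9.17 ± 0.0930. This range lay inside that of transgenic blood. In the parenchyma the values were 9.55, 37.5 and 19.5 CPM, from 182, 820 and 540 counts, a mean of 22.2 ± 14.2. Parenchyma replicate 1 was as low as a blood or meningeal library, and replicates 2 and 3 were higher than any other library of the series.

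In these libraries, Cd8a RNA was higher in transgenic than in wild-type blood, by a call that did not hold in every fit. Cd8a was 1.65-fold higher (log2 fold change 0.72, SE 0.23, 95% interval 0.22 to 1.23, adjusted p = 0.0417 by edgeR among 11618 genes). The groups did not overlap, which held for 43.9% of all genes tested in this comparison. A larger absolute change was seen in 20.4% of them. Depth was split by genotype, with at least 29959282 counts in each wild-type library and at most 21229957 in each transgenic blood library. The call was close to its threshold and was lost when any 1 of the 6 libraries was left out. The edgeR adjusted p was 0.0506, 0.0564 and 0.132 without wild-type replicates 1, 2 and 3, and 0.0562, 0.0540 and 0.146 without transgenic replicates 1, 2 and 3. In a fit of all 12 libraries the adjusted p was 0.192 with a log2 fold change of 0.70.

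From blood to meninges no change of Cd8a was detectable. The log2 fold change was 0.18 (SE 0.40, 95% interval -0.70 to 1.07, edgeR adjusted p = 0.841), and the CPM of the groups overlapped. In this comparison 32.1% of the genes tested had groups without overlap. In an edgeR fit of these groups alone the log2 fold change was 0.19 with an SE of 0.18 (adjusted p = 0.536).

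From blood to parenchyma Cd8a rose 2.62-fold (log2 fold change 1.39, SE 0.40, 95% interval 0.50 to 2.28, edgeR adjusted p = 0.0229 among 11809 genes). The CPM of parenchyma and blood overlapped, because parenchyma replicate 1 (9.55 CPM) lay below the highest blood library (10.3 CPM). Groups without overlap were found for 46.0% of the genes tested. A larger absolute change was seen in 11.96% of the genes tested. Without parenchyma replicate 2 the log2 fold change was 0.79 (edgeR adjusted p = 0.0633). The call was also lost without transgenic blood replicate 1 (adjusted p = 0.0779) or 2 (0.0780), with limma-voom (0.0564) and in an edgeR fit of these groups alone (0.0555).

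Between parenchyma and meninges the difference in Cd8a missed the threshold. Cd8a was 2.31-fold higher in the parenchyma (log2 fold change 1.20, SE 0.40, 95% interval 0.32 to 2.09, edgeR adjusted p = 0.0687), and the groups did not overlap, as was the case for 34.5% of the genes tested. The lowest parenchyma library (9.55 CPM) was only slightly above the highest meningeal one (9.26 CPM). DESeq2 gave an adjusted p of 0.0124, and edgeR gave 0.00945 without parenchyma replicate 1. Without parenchyma replicate 2 the log2 fold change was 0.60 (edgeR adjusted p = 0.193). Cd8a was thus called in 2 of the 4 comparisons by edgeR and Cd4 in 0. In the comparisons that called Cd8a, edgeR called 25.8% (transgenic against wild-type blood) and 35.1% (parenchyma against blood) of all genes tested. In the others it called 6.51% (meninges against blood) and 15.5% (parenchyma against meninges).

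**Figure D2:**
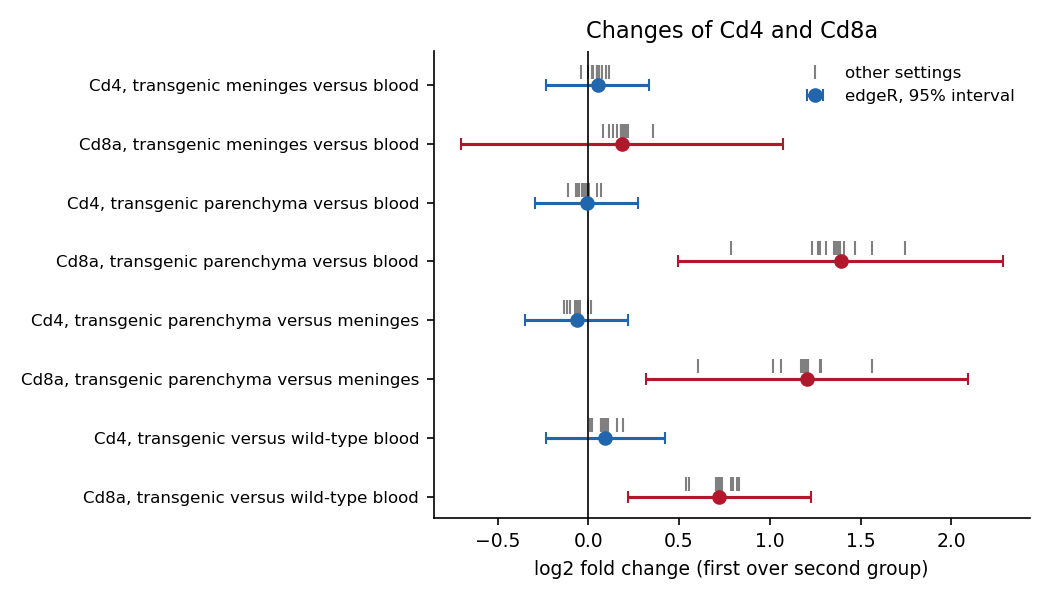
Log2 fold changes of Cd4 (blue) and Cd8a (red) in the 4 comparisons from edgeR; horizontal bars are 95% intervals and grey ticks are the values under the other settings, replicates left out included. All Cd4 values stay near 0, and the values of Cd8a in parenchyma against blood run from 0.79 to 1.75.

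The ratio of Cd4 to Cd8a counts within a library does not depend on its depth or scaling. It is not corrected for the lengths of the transcripts, so it compares libraries and does not give the relative number of molecules or cells. In wild-type blood there were 122, 128 and 156 Cd4 counts per Cd8a count, and in transgenic blood 87.3, 97.9 and 75.8. The meninges gave 70.9, 82.6 and 81.8, and the parenchyma 66.9, 20.6 and 38.4. Every wild-type library had a higher ratio than every transgenic one, and every parenchyma library had a lower ratio than every other library. The counting interval of parenchyma replicate 1 (57.8 to 77.9) overlapped those of meningeal replicate 1 (62.0 to 81.5) and transgenic blood replicate 3 (65.3 to 88.6). Against that blood library, Cd8a in parenchyma replicate 1 was not higher (9.55 against 10.3 CPM). The lower ratio there came from Cd4 (639 against 778 CPM). Separation was not counted over other pairs of genes.

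Expressed as a share, Cd8a made up 0.741% ± 0.0904 of the coreceptor counts in wild-type blood and 1.15% ± 0.146 in transgenic blood (SD, n = 3). The share was 1.26% ± 0.109 in the meninges and 2.88% ± 1.61 in the parenchyma. The parenchyma libraries differed from each other beyond counting error. Their shares were 1.47% (95% exact Clopper-Pearson interval 1.27 to 1.70), 4.63% (4.32 to 4.95) and 2.54% (2.33 to 2.76). The interval of replicate 1 overlapped those of all 3 meningeal libraries, whose shares were 1.39% (1.21 to 1.59), 1.20% (1.01 to 1.40) and 1.21% (1.08 to 1.35). These intervals cover counting error only, since the reads carry no stated molecular identifiers. Such shares are of counts and are not shares of cells.

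**Figure D3:**
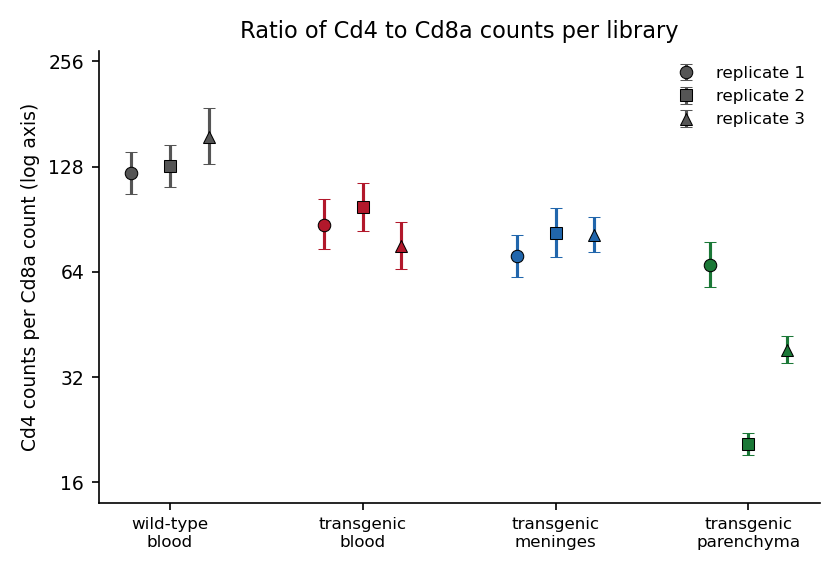
Cd4 counts per Cd8a count in each library on a log axis, by group; symbols are replicates 1 to 3 and bars are 95% exact binomial intervals for counting error. The ratio lies between 122 and 156 in wild-type blood, and the parenchyma libraries spread from 66.9 down to 20.6.

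The log2 ratio differed among the 3 transgenic tissues in an exact permutation test of the one-way F statistic over all 1680 assignments of the 9 libraries (F = 5.04, p = 0.0143). The groups were unequal in spread, with an SD of the log2 ratio of 0.18 in transgenic blood, 0.12 in the meninges and 0.85 in the parenchyma, and this test responds to spread as well as to level. Its p was 0.0571 and 0.0607 without transgenic blood replicates 1 and 2, and 0.0607, 0.05 and 0.05 without meningeal replicates 1, 2 and 3. The p was also 0.0143 without any 1 parenchyma library, but over fewer assignments, so the equal values do not measure stability. The log2 difference of the ratio between parenchyma and blood was -0.77 without parenchyma replicate 2 and -1.62 without replicate 1. In a version that exchanged libraries only within each replicate number, the exact permutation p was 0.0556. For pairs of groups, 3 libraries against 3 cannot give a two-sided exact permutation p below 0.1, and 4 pairs were compared. The ratio was 2.30-fold lower in parenchyma than in blood (log2 difference -1.20, SE 0.50, exact permutation p = 0.1, adjusted 0.133). It was 2.08-fold lower in parenchyma than in meninges (-1.06, SE 0.49, exact permutation p = 0.1, adjusted 0.133) and 1.56-fold lower in transgenic than in wild-type blood (-0.64, SE 0.15, exact permutation p = 0.1, adjusted 0.133). Meninges and blood differed by -0.14 (SE 0.13, exact permutation p = 0.400, adjusted 0.400), and their ratios overlapped.

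How far the libraries of a group lay apart differed between the coreceptors. In the parenchyma the SD of log2(CPM + 0.5) was 0.96 for Cd8a and 0.15 for Cd4, against a median of 0.22 over the genes tested. Of the 3304 genes within 2-fold of the level of Cd8a there, 3.9% had a larger SD. In the meninges the SD of Cd8a was 0.01, and 0.338% of 2070 genes of like level had a smaller one. The meningeal values lay closer together than their counting intervals, which ran from 7.68 to 10.6 CPM for replicate 2 alone. In wild-type and transgenic blood the SD of Cd8a was 0.26 and 0.27, against medians of 0.23 and 0.21 over genes of like level. The spread of Cd8a was thus wide for its level in the parenchyma. In the meninges it was narrow, but values closer together than counting error do not measure how far these libraries differ. The range of level was chosen after the values of Cd8a were seen, and these shares are descriptions.

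**Figure D4:**
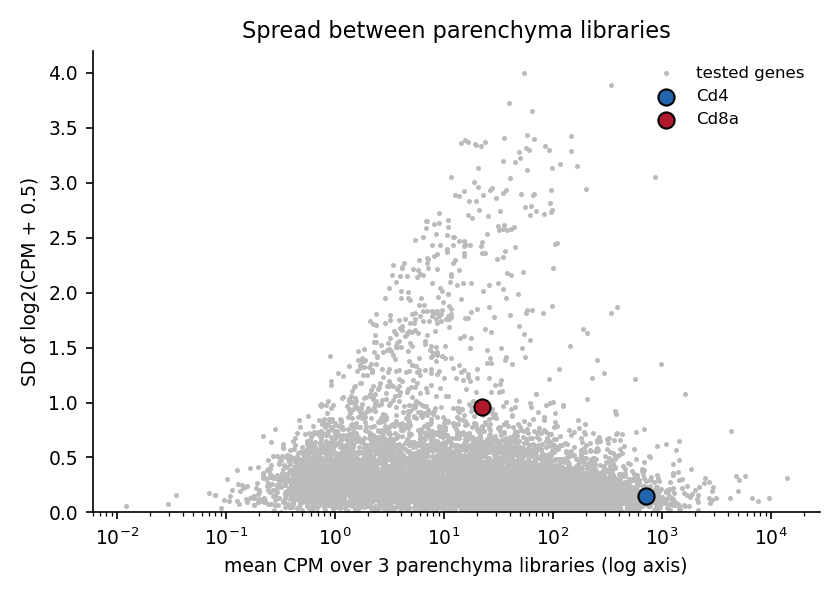
SD of log2(CPM + 0.5) over the 3 parenchyma libraries against mean CPM (log axis) for the 11809 genes tested (grey), with Cd4 (blue) and Cd8a (red). Cd8a, at 22.2 CPM, lies above most genes of its level with an SD of 0.96, and Cd4 lies among the others with an SD of 0.15.

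The parenchyma libraries also differed in RNA that was nearly absent from transgenic blood. There were 77 genes that had at most 3 counts in each library of transgenic blood and averaged 5 CPM or more over the parenchyma. Their share of all counts was 0.0581% in parenchyma replicate 1, 0.0181% in replicate 2 and 0.317% in replicate 3. The low share in blood and the higher one in the parenchyma were fixed by that choice, and a limit on the mean favours genes high in replicate 3, so the order of the parenchyma libraries depends on it too and is not set against that of Cd8a. The share was between 0.00469% and 0.0111% in the meninges. The cell types behind these genes are not known here, and their part in the level of Cd8a was not tested. Replicate 2 was the highest of the parenchyma libraries for 38.7% of all genes tested, compared with 31.9% for replicate 1 and 29.4% for replicate 3.

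Genes with a pattern like that of each coreceptor were ranked by Pearson's correlation of log2(CPM + 0.5) over the 12 libraries, which share genotype and tissue within groups and differ in depth, among genes with a mean of at least 20 CPM. For Cd4, the nearest of 6895 genes were ENSRNOG00000002365 (r = 0.82, Spearman's rho 0.85) and ENSRNOG00000018859 (r = 0.82, rho 0.81). ENSRNOG00000018859 held 13.1, 36.9 and 42.6 CPM in transgenic blood, 11.1, 28.2 and 36.8 in the meninges and 21.3, 33.6 and 40.4 in the parenchyma. In each transgenic tissue it thus shared the low replicate 1 with Cd4. For Cd8a, the nearest of 6896 genes were ENSRNOG00000015780 (r = 0.96) and ENSRNOG00000006148 (r = 0.93). ENSRNOG00000015780 held 43.3, 75.2 and 58.4 CPM in the parenchyma, the same order of libraries as Cd8a. By Spearman's correlation ENSRNOG00000006148 was the nearest to Cd8a (rho 0.96), whereas ENSRNOG00000015780 took place 633 (rho 0.73). These correlations are descriptions of genes picked for being the most alike.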

How the data were processed

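The authors deposited 1 file of raw counts per library, with 32754 gene rows each. The submitters' processing notes name build rn6, the aligner STAR 2.5 and the counter featureCounts 1.5.0-p1. Settings, strandedness and annotation: not given in the sources used here. The labels' protocols name Trizol and both a TruSeq and a low-input NEBNext kit, without saying which served which library, so kit and group cannot be told apart.

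Cd4 and Cd8a were taken by identifier, and both passed the filter on low counts. Counts were tested with edgeR 4.0.16 in R 4.3.3: filterByExpr with a minimum count of 10, TMM scaling, a two-sided quasi-likelihood test and Benjamini-Hochberg adjustment over all genes tested (threshold 0.05). Tissues were compared over 9 transgenic libraries (11809 genes, 6 residual degrees of freedom) and genotypes over 6 blood libraries (11618 genes, 4 residual degrees). The SE is the fold change divided by the square root of F. The procedure was tested on simulated data. Ratios used a pseudocount of 0.5 on both counts in tests and none where printed. Alternatives were DESeq2 1.42.0, limma-voom (limma 3.58.1), other scaling, no filter, other sets of libraries, a replicate block and each library left out.

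The genes named are the 2 members and, per member, the 2 most correlated identifiers of at least 20 CPM. The members, the lists and these rules were chosen with earlier results of these data known. Lists of pathway and marker genes could not be used, because 0 lines of the reference table hold an Ensembl rat identifier.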

Additional observations from a re-analysis of the deposited data

How the results depend on the processing

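Cd8a in parenchyma against blood missed the threshold with limma-voom (log2 fold change 1.24) and in a fit of the groups compared (1.37), and ran from 0.79 to 1.75 with 1 library left out. In parenchyma against meninges Cd8a passed the threshold with DESeq2 (1.21) and without parenchyma replicate 1 (1.56), and ran from 0.60 to 1.56 with 1 library left out. In transgenic against wild-type blood Cd8a missed it in the fit of 12 libraries (0.70) and with the replicate block (0.72, edgeR adjusted p = 0.0632), and ran from 0.54 to 0.83 with 1 library left out. The p of the ratio among tissues (exact permutation) ran from 0.0143 to 0.0607 with 1 library left out and was 0.0556 with the replicate block. Cd4 passed the threshold in none of these settings, and its sign turned in 7 of them. With library totals in place of TMM its log2 fold change was 0.00074 in parenchyma against both blood and meninges. With 1 library left out it ran from -0.0401 to 0.11 in meninges against blood, from -0.11 to 0.069 in parenchyma against blood and from -0.13 to 0.016 in parenchyma against meninges. The causes were not tested. Whether the replicate numbers pair the libraries could not be decided, because the signs were mixed. Deviations from the group means of same-numbered libraries correlated across genes at -0.277 to 0.494 among transgenic tissues. Between genotypes in blood they correlated at -0.222 to 0.422. The mean correlation was 0.243 for transgenic blood with meninges, -0.0336 for transgenic blood with parenchyma and -0.197 for meninges with parenchyma. With 118 to 820 counts of Cd8a per library, counting error was small beside the spread in the parenchyma but not in the meninges.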
